A study of Mus musculus with 6 samples.

Results

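The NR4A, EGR and AP-1 immediate early genes are transcription factor genes that cells switch on within minutes of a stimulus, from promoters that need no new protein to act. The set described here holds 10 genes chosen by name, 3 of the NR4A family (Nr4a1, Nr4a2 and Nr4a3), 3 of the EGR family (Egr1, Egr2 and Egr3) and 4 of the AP-1 family (Fos, Fosb, Fosl2 and Junb), out of 24062 genes in the count tables. All 10 were present and all 10 passed the filter on low counts, which left 13155 genes tested. They were measured by polyA RNA-seq in cultures of femur and tibia marrow from C57BL/6J mice, grown with GM-CSF at 20 ng/ml and fed with it on days 3, 6 and 10. The 3 low tension samples grew on a substrate of 2 kPa and the 3 high tension samples on a substrate of 50 kPa, and both groups had the same strain, cytokine and feeding. The series asks how the stiffness of the substrate changes transcription in such cultures. The age and number of the mice and any sort of the cells are not stated. Nothing says that the samples came from separate cultures, so the p-values reflect the spread among these libraries alone, which may be technical.

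Immediate early genes link signals at the cell surface to later transcription. ERK and p38 MAP kinases act on serum response factor (SRF) and its ternary complex partners at EGR and FOS promoters, while calcium and cyclic AMP act on CREB, which has a large part in NR4A induction. NR4A proteins are orphan nuclear receptors that bind DNA without a known hormone, and Nr4a1 is needed for patrolling monocytes and restrains inflammatory genes in macrophages. EGR proteins are zinc finger factors, held in check by the NAB corepressors, and Egr1 and Egr2 act in myeloid differentiation. FOS and JUN proteins pair through leucine zippers to form AP-1, in which JunB is a frequent partner in dendritic cells and macrophages.

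Promoter stretches of 5 genes, the NR4A genes, Egr2 and Fos, are shown so that any CREB and SRF motifs close before their start sites can be seen. They come from RefSeq on GRCm38.p6 and are written 5′ to 3′ on the strand of the gene. Capitals mark the CREB half-site TGACG on either strand (CGTCA on the other strand) and the CArG box that SRF binds. The stretches are Nr4a1 at chr15:101266596-101266845 (plus strand), Nr4a2 at chr2:57124004-57124253 (minus strand), Nr4a3 at chr4:48045055-48045152 (plus strand), Egr2 at chr10:67537619-67537868 (plus strand) and Fos at chr12:85473640-85473889 (plus strand).
Nr4a1: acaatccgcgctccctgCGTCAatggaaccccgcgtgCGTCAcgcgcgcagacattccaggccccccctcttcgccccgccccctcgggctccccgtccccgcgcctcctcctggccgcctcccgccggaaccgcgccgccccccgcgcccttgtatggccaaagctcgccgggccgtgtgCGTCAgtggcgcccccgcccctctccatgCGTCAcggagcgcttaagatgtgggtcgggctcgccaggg
Nr4a2: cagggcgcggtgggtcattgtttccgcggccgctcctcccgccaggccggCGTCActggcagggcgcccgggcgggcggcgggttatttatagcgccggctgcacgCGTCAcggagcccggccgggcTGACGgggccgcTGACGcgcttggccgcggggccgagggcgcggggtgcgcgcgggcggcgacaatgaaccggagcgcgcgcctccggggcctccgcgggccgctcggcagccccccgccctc
Nr4a3: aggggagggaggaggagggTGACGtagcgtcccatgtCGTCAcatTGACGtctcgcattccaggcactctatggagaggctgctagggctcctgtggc
Egr2: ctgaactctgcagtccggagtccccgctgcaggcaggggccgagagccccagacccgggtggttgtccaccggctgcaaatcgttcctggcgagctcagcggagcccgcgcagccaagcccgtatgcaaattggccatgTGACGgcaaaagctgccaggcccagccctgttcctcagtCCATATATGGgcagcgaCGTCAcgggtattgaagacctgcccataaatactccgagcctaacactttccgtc
Fos: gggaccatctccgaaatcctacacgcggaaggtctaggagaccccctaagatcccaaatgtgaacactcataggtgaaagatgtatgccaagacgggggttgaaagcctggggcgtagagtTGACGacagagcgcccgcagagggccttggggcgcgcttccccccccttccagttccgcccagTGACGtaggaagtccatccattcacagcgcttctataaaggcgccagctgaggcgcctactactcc

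Each stretch ends at the base before the RefSeq start site and is 250 bases long, except that of Nr4a3, which was cut to the 98 bases that lie outside every GENCODE exon. In the full 250 bases each of the 3 NR4A promoters held 4 copies of TGACG, counted on both strands. That number or more was found in 0.137% of the 32851 promoter windows of that length in the table, and at least 1 copy in 17.8%. The Fos promoter held 2 copies, Fosb and Junb 1 each and Fosl2 0. Among the 5 Egr2 windows, some of which overlap, 3 held 2 copies and 2 held 0. The Egr2 stretch shown is the first of the 5 that holds both a CArG box and TGACG. It was picked for these motifs and does not stand for the other windows. Egr2 had 2 distinct CArG boxes, 1 of them seen in 3 overlapping windows, and the other members' windows held none. Bases farther than 250 before the start were not searched, so a box there, for Fos or any other member, would be missed. The windows of Nr4a1 and Fosl2 and the Egr2 window shown lie inside the GENCODE gene spans given below. Each of these precedes a start within its span. For Nr4a1 and Fosl2 no bases before the GENCODE gene start were searched. A CArG box was found in 1.47% of all windows. The full CREB site TGACGTCA (1.55% of all windows), the AP-1 site TGANTCA (6.75%) and the EGR site GCGTGGGCG (0.536%) had 0 matches in the members' windows. These are matches of letters in a short stretch, and they show neither binding nor use of a site. No window for Egr1 or Egr3 was used here.

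Library depth was 33.8 M to 36.3 M counts (TMM scaling factors 0.927 to 1.16). High tension replicates 1 and 2 were nearly alike: their chi-square statistic divided by its degrees of freedom was 6.71, while every other pair in the same group gave 126 to 233. Low tension replicate 1 was closer to the 50 kPa libraries (122 to 136) than to its own group (156 and 213). Values without these libraries are therefore given where they change a result. The labelled dendritic cells were checked against markers. Itgax (CD11c) was 299 to 2958 CPM, the counts scaled to a common library size, over the 6 libraries and the class II gene H2-Aa 1029 to 5386 CPM, while Flt3, a receptor of conventional dendritic cells, was 2.09 to 9.19 CPM. The macrophage marker list was also abundant, at 2103 to 6005 CPM summed over its 10 genes found. Each value is therefore an average over a mixed culture, in which fewer cells of a type and less RNA per cell cannot be told apart. All levels below are CPM on the TMM scale, and means carry the SD over n = 3 libraries.

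Between the 2 stiffnesses, Nr4a1 passed the test and was 2.31-fold lower at 50 kPa. The other 9 members did not pass and had levels that overlapped between the groups. Whether Nr4a1 differed from them in its response was not tested, and the intervals of Nr4a2, Nr4a3, Egr1 and Fosb overlapped that of Nr4a1. By edgeR's quasi-likelihood test 1 of 10 members was lower and 0 were higher at a Benjamini-Hochberg adjusted p under 0.05, beside 1.98% and 1.47% of all genes tested (3.45% in either direction). At an unadjusted p under 0.05 there were 2 members, both lower (Nr4a1 and Nr4a3), beside 27.8% of all genes in either direction and 14.8% lower. DESeq2 called 1 member lower and 0 higher, beside 8.59% and 7.44% of genes (16.0% in either direction). The members' median log2 fold change (50 kPa over 2 kPa) was -0.30, against -0.028 over all genes tested, and 7 of 10 were below 0, as were 53.2% of all genes. The 10 members summed to 1061 to 1247 CPM at 2 kPa and 1068 to 1178 CPM at 50 kPa, so their total overlapped between the groups.

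**Figure D1:**
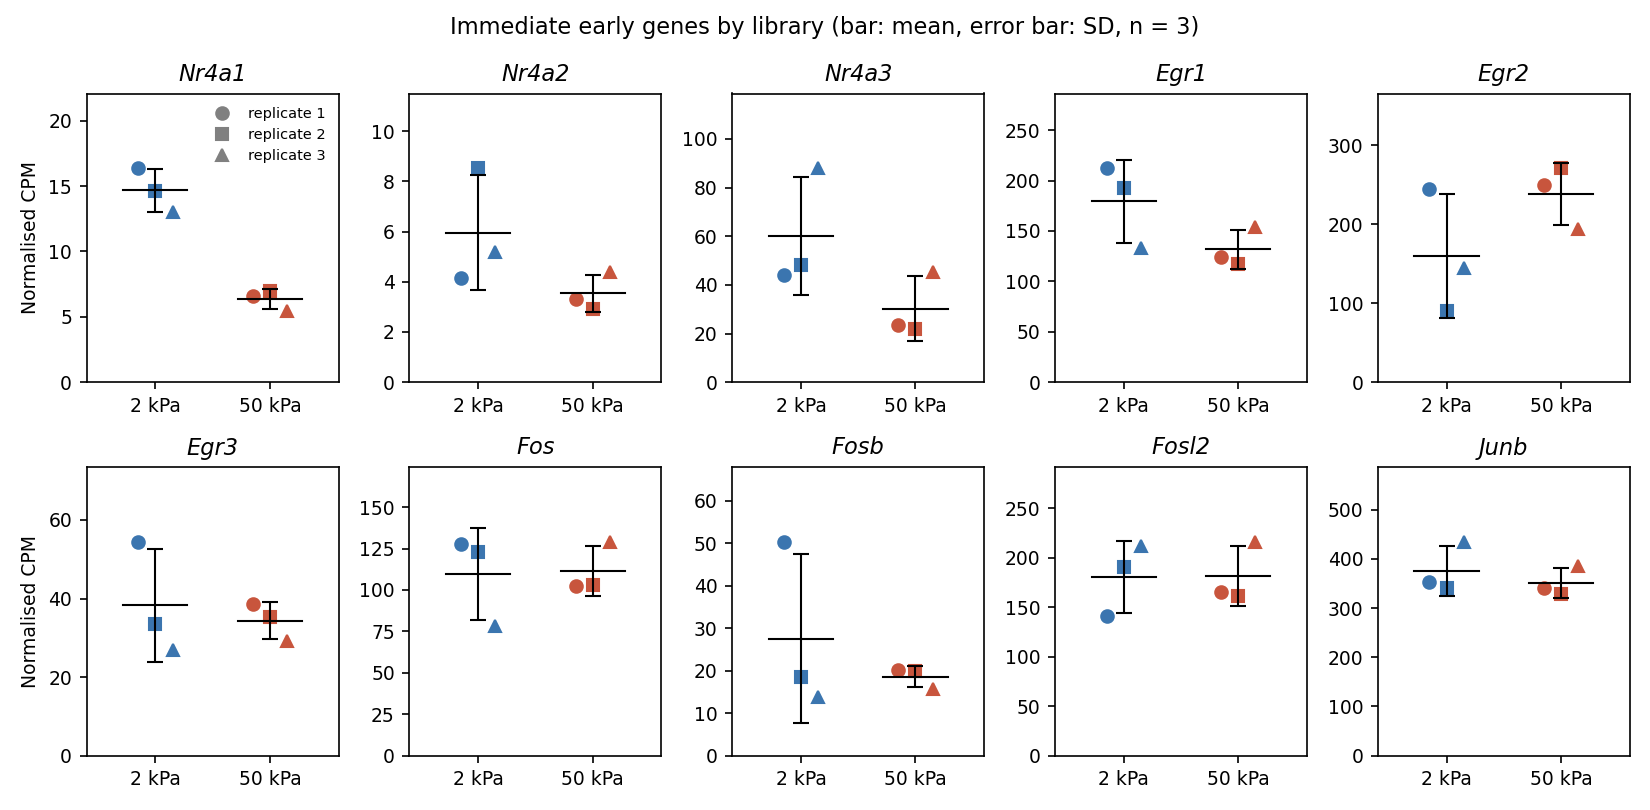
Normalised CPM (vertical axes, each from 0) of the 10 immediate early genes in the 3 libraries at 2 kPa (blue) and the 3 at 50 kPa (red), with the mean and SD of each group and a symbol for each replicate number. Nr4a1 lies at 13.04 to 16.4 CPM at 2 kPa and at 5.47 to 6.96 CPM at 50 kPa, and in the other 9 panels the groups overlap.

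Nr4a1 encodes Nur77 and lies at chromosome 15, 101254269 to 101274795 on the plus strand of GRCm38 (ENSMUSG00000023034.7, GENCODE vM21). Its level was 16.4, 14.6 and 13.04 CPM in low tension replicates 1 to 3, and 6.63, 6.96 and 5.47 CPM in high tension replicates 1 to 3. Every 50 kPa library lay below every 2 kPa library, which held for 1 of 10 members and for 16.9% of all genes tested, where groups failed to overlap in either direction for 34.1%. The means were 14.7 ± 1.66 and 6.35 ± 0.781 CPM, a log2 fold change of -1.21 ± 0.15 (SE; 95% interval -1.58 to -0.84; edgeR adjusted p = 0.0315). These levels rest on 434 to 632 counts per library at 2 kPa and 189 to 233 at 50 kPa. Of the genes tested, 0.494% had a smaller p. The spread within each group was the smallest of the NR4A genes, with a coefficient of variation of 11.3% at 2 kPa and 12.3% at 50 kPa.

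The Nr4a1 call depended on which libraries were kept, while its size moved little. Leaving out each library in turn kept the log2 fold change between -1.28 and -1.10 and the unadjusted p between 0.000254 and 0.00123. By edgeR, dropping low tension replicate 2 gave an adjusted p of 0.0915, dropping low tension replicate 3 gave 0.0546, and dropping high tension replicate 1 or 2 gave 0.177 or 0.157. It was 0.148 with high tension replicates 1 and 2 summed into 1 sample. It stayed under 0.05 when low tension replicate 1 (0.0470) or high tension replicate 3 (0.0436) was dropped, and DESeq2 gave an adjusted p of 1.67e-09.

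Markers of several cell types moved with the same contrast, and their part in the Nr4a1 result was not tested. Neutrophil markers (11 of 12 listed genes found) summed to 3635 to 7040 CPM at 2 kPa and 854 to 1493 CPM at 50 kPa, with 6 of 11 lower by edgeR. B cell and plasma cell markers (9 of 9) summed to 889 to 1436 and 25.6 to 109 CPM, with 8 of 9 lower, and megakaryocyte and platelet markers (6 of 6) to 217 to 375 and 76.1 to 241 CPM, with 4 of 6 lower. Basophil and mast cell markers (7 of 7) summed to 284 to 685 and 151 to 180 CPM and classical monocyte markers (5 of 5) to 945 to 1459 and 802 to 1437 CPM, with 0 and 2 genes lower by edgeR. DESeq2 called 6 of the 7 basophil and mast cell markers lower. Of the 5 monocyte markers it called 2 lower and 1 higher, F13a1 (DESeq2 adjusted p = 0.00667). At 50 kPa the largest part of the basophil and mast cell sum was Kit, at 125, 120 and 71.7 CPM. Its log2 fold change was 0.47, against -1.65 to -4.00 in the rest of that list. Pf4 was the largest part of the megakaryocyte and platelet sum at 50 kPa, at 82.8, 62.5 and 204 CPM. Its log2 fold change was -0.13, against -2.51 to -3.92 in the rest of that list. Macrophage markers (10 of 11) summed to 2103 to 3882 and 5174 to 6005 CPM, and GM-CSF dendritic cell markers (10 of 10) to 6149 to 12344 and 15085 to 23120 CPM, with 0 calls by edgeR in either list. DESeq2 called 5 macrophage markers higher, and 4 dendritic cell markers higher and 4 lower. The dendritic cell sum is carried by Cd74, H2-Aa, H2-Ab1 and Itgax, while 5 of the 10 had log2 fold changes below 0, and Flt3 (-1.39), Dpp4 (-1.41), Ccr7 (-1.22) and Cd86 (-1.13) lay below with no overlap. T and NK cell markers (7 of 8) summed to 2.76 to 5.95 CPM at 2 kPa and 3.50 to 6.60 CPM at 50 kPa. Stromal markers (7 of 7) summed to 4.53 to 21.8 and 2.77 to 4.51 CPM, with no overlap by a narrow margin. Of these stromal genes, 6 had log2 fold changes below 0. In these lists edgeR made 0 calls, while DESeq2 called 3 stromal markers lower. No marker found was at 0 in all libraries. These marker calls need most of the libraries: over all genes edgeR called 0 lower with low tension replicate 2, low tension replicate 3, high tension replicate 1 or high tension replicate 2 left out, where 1444, 2342, 1114 and 1115 were lower at an unadjusted p under 0.05.

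The other NR4A genes had lower means at 50 kPa without passing the test. Nr4a3 encodes NOR-1 (chromosome 4, 48045153 to 48086447, plus strand). It stood at 44.0, 48.3 and 87.9 CPM at 2 kPa and at 23.4, 21.7 and 45.5 CPM at 50 kPa, so high tension replicate 3 reached into the 2 kPa range and low tension replicate 3 stood highest. Its log2 fold change was -0.99 ± 0.39 (95% interval -1.92 to -0.058; edgeR adjusted p = 0.163). Without low tension replicate 3 the value was -0.61, and leaving out high tension replicate 3 gave -1.41, so these libraries set much of its size.

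Nr4a2 encodes Nurr1 (chromosome 2, 57106830 to 57124003, minus strand) and was the scarcest member. It stood at 4.17, 8.52 and 5.20 CPM at 2 kPa and at 3.33, 2.93 and 4.37 CPM at 50 kPa. The groups overlapped through low tension replicate 1 and high tension replicate 3, and low tension replicate 2 was the highest. The log2 fold change was -0.75 ± 0.31 (95% interval -1.51 to 0.0052; edgeR adjusted p = 0.182), and -0.40 without low tension replicate 2. In all 6 libraries Nr4a3 was above Nr4a1, with a ratio of their CPM of 2.69 to 6.74 at 2 kPa and 3.12 to 8.32 at 50 kPa.

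**Figure D2:**
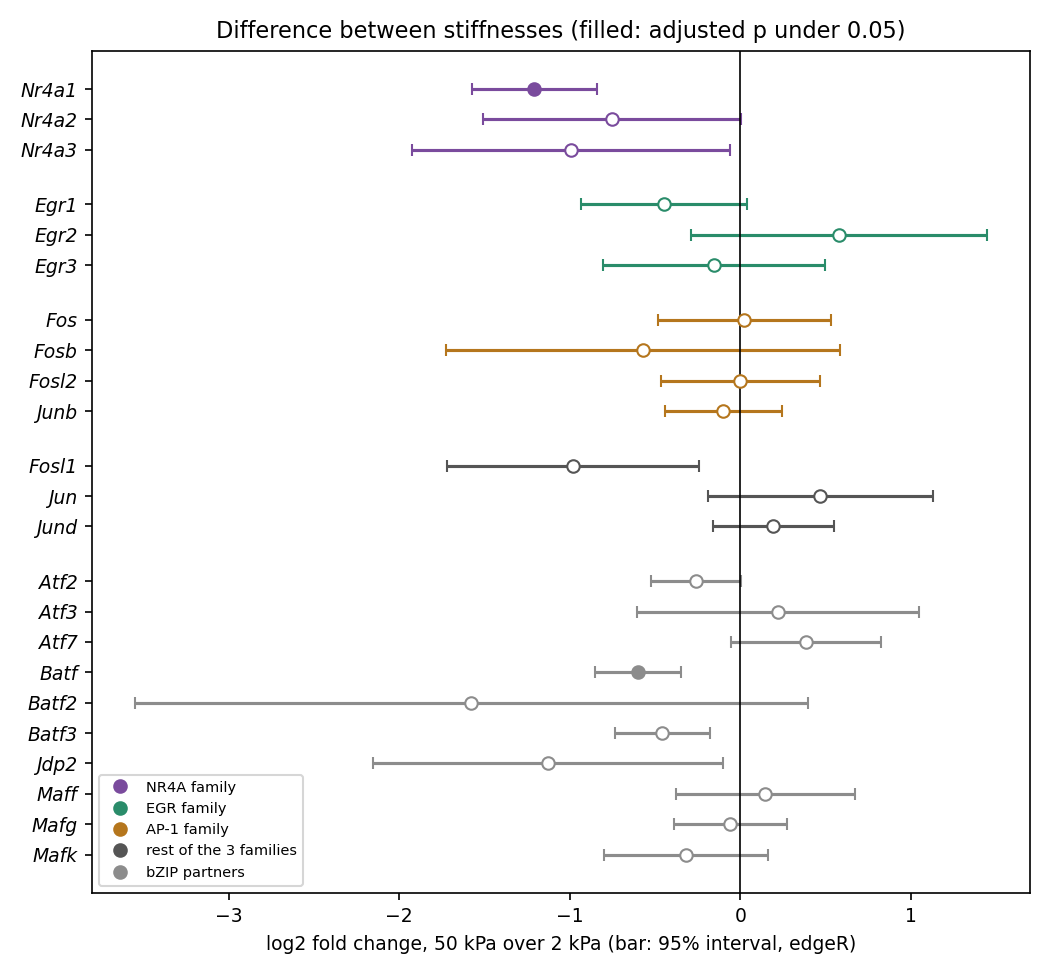
Log2 fold change of 50 kPa over 2 kPa (horizontal axis) with its 95% interval from edgeR for the 10 members by family, for 3 further genes of the families and for 10 bZIP partners. Filled points passed the test, Nr4a1 at -1.21 and Batf at -0.60, and the intervals of the EGR and AP-1 members all span 0.

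None of the 3 EGR genes passed edgeR's test, 0 did so at an unadjusted p under 0.05 and 0 by DESeq2. Egr1, the most studied early response gene of the family (chromosome 18, 34859823 to 34864984, plus strand), stood at 212, 193 and 133 CPM at 2 kPa and at 124, 117 and 154 CPM at 50 kPa. Low tension replicate 3 lay below high tension replicate 3, so the groups overlapped. Its log2 fold change was -0.45 ± 0.20 (95% interval -0.93 to 0.042; edgeR adjusted p = 0.209). Egr2, also called Krox20 (chromosome 10, 67535475 to 67542188, plus strand), stood at 244, 89.5 and 144 CPM at 2 kPa and at 249, 271 and 194 CPM at 50 kPa. Low tension replicate 1 lay within the 50 kPa range, and the other 2 kPa libraries were below all of them. The log2 fold change was 0.58 ± 0.36 (95% interval -0.29 to 1.45; edgeR adjusted p = 0.330), and became 1.03 when low tension replicate 1 was left out or 0.29 when replicate 2 was.

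Egr3, which EGR1 itself can induce (chromosome 14, 70077203 to 70082614, plus strand), stood at 54.4, 33.6 and 26.9 CPM at 2 kPa and at 38.6, 35.3 and 29.3 CPM at 50 kPa. The 2 kPa libraries spanned the whole 50 kPa range. Its log2 fold change was -0.15 ± 0.27 (95% interval -0.80 to 0.50; edgeR adjusted p = 0.725). The balance between Egr2 and Egr1 was also taken within each library, as 1 of 5 ratios chosen after the values were seen. The ratio of Egr2 to Egr1 CPM was 1.15, 0.464 and 1.08 at 2 kPa and 2.00, 2.31 and 1.26 at 50 kPa. All 50 kPa libraries lay above all 2 kPa libraries, with a 2-sided exact permutation p of 0.1, the smallest that 3 against 3 allows, and 0.5 after adjustment over the 5 ratios. The other ratios, Fosb to Fos, Fosl2 to Fos, Nr4a3 to Nr4a1 and Egr3 to Egr1, overlapped between the groups (exact permutation p of 0.3 to 1).

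Among the 4 AP-1 members edgeR made 0 calls, DESeq2 made 0, and 0 had an unadjusted p under 0.05. Junb, an AP-1 partner that is abundant in myeloid cells (chromosome 8, 84974484 to 84978718, minus strand), was at 353, 341 and 435 CPM at 2 kPa and at 341, 328 and 385 CPM at 50 kPa. Its log2 fold change of -0.10 ± 0.14 had the narrowest interval of the members, -0.44 to 0.24 (edgeR adjusted p = 0.663). Its exons overlap those of Prdx2 on the opposite strand, and whether counting used the strand is not stated. The value may therefore hold reads of both genes or miss reads in the shared bases. The other 9 members share no exon bases with another gene in this annotation.

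Fos, the founding member of the FOS genes (chromosome 12, 85473890 to 85477273, plus strand), was at 128, 123 and 78.0 CPM at 2 kPa and at 102, 103 and 129 CPM at 50 kPa. Low tension replicate 3 was the lowest library and high tension replicate 3 the highest, with a log2 fold change of 0.024 ± 0.21 (95% interval -0.48 to 0.53; edgeR adjusted p = 0.949). Fosl2, also called Fra-2 and longer lived than Fos as a protein (chromosome 5, 32135801 to 32157842, plus strand), was at 141, 191 and 212 CPM at 2 kPa and at 165, 162 and 216 CPM at 50 kPa. Its log2 fold change was 0.0016 ± 0.19 (95% interval -0.47 to 0.47; edgeR adjusted p = 0.997). The sign of the Fos and Fosl2 values changed with total counts as the scaling, to -0.13 and -0.12, and each interval allows a difference of either sign.

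Fosb, a FOS gene that yields a long and a short protein form (chromosome 7, 19302696 to 19310051, minus strand), owed the sign of its difference to 1 library. It stood at 50.3, 18.5 and 13.8 CPM at 2 kPa and at 20.1, 19.9 and 15.7 CPM at 50 kPa. Low tension replicate 1 was far above the other 5 libraries, which lay between 13.8 and 20.1 CPM. The log2 fold change was -0.57 ± 0.48 (95% interval -1.73 to 0.59; edgeR adjusted p = 0.462), and 0.20 without that library. Egr3 likewise stood at 0.19 without low tension replicate 1.

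**Figure D3:**
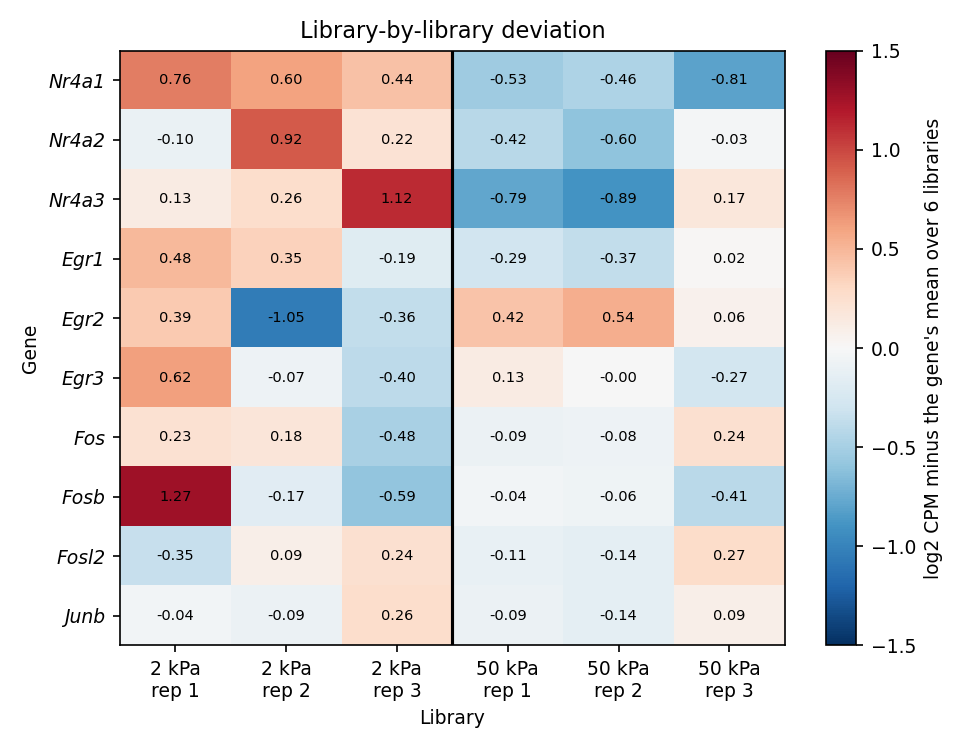
Log2 CPM of each member in each library minus its mean over the 6 libraries (colour and printed value; rows are genes, columns are libraries, and the line parts 2 kPa from 50 kPa). Nr4a1 is positive in the 3 libraries at 2 kPa and negative in the 3 at 50 kPa, while Fosb is at 1.27 in low tension replicate 1 and Egr2 at -1.05 in low tension replicate 2.

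The spread between replicates differed among the members. At 2 kPa the coefficient of variation reached 72.2% for Fosb, 49.2% for Egr2 and 40.3% for Nr4a3, and at 50 kPa the highest was 43.9% for Nr4a3. High tension replicates 1 and 2 were nearly alike, so the spreads of the groups are not compared. Different members stood high in different 2 kPa libraries. Low tension replicate 1 had the highest 2 kPa level of Nr4a1, Egr1, Egr2, Egr3, Fos and Fosb, low tension replicate 2 that of Nr4a2, and low tension replicate 3 that of Nr4a3, Fosl2 and Junb. Across the 6 libraries, log2 CPM of Egr3 and Fosb had a Pearson r of 0.971, that of Nr4a2 and Egr2 -0.969 and that of Egr3 and Fosl2 -0.937. These are descriptions over n = 6 points that share 2 groups and a pair of very similar libraries, taken from 45 pairs of members.

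On a scale per length, CPM divided by merged exon length in kb, the members spanned a wide range of levels. Junb was the highest, at 143 to 189 CPM per kb over the 6 libraries and above every library of any other member. Egr2 (26.3 to 79.7), Fos (33.2 to 54.9) and Egr1 (26.1 to 47.3) followed with levels that overlapped each other. Fosl2 lay at 14.5 to 22.3 CPM per kb, above Egr3 at 6.09 to 12.4. Nr4a3 (3.63 to 14.7) reached into the range of Fosl2 and overlapped Egr3 and Fosb (2.20 to 8.05), as did Fosb and Nr4a1 (1.56 to 4.66). Nr4a2 was the lowest, at 0.721 to 2.10 CPM per kb, and overlapped Nr4a1. The order by mean was the same with the longest transcript as the length.

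The genes whose log2 CPM followed the most abundant member of each family most closely over the 6 libraries were taken from 9685 genes with a mean of at least 5 CPM. For Nr4a3 they were Arid5a, an RNA-binding protein that stabilises inflammatory transcripts (Pearson r = 0.9993), Ptgs2, the inducible cyclooxygenase (0.9979), and Bcl2a1d, an anti-apoptotic BCL2 relative (0.9965). Ptgs2 stood at 113, 138 and 536 CPM at 2 kPa and at 29.6, 29.7 and 137 CPM at 50 kPa. Replicate 3 was highest in each group, as for Nr4a3, which follows from picking the highest r. With 9685 genes searched over only 6 libraries, such r values describe the picked genes and were not tested as a link. For Egr2 they were Dusp22, a phosphatase (0.9958), Pea15a, a binding partner of ERK (0.9935), and Pgap1, an enzyme of GPI anchors (0.9924). For Junb they were Xkr8, a phospholipid scramblase (0.9985), Isoc1 (0.9956) and Syngr2, a vesicle protein (0.9955). None of these 9 genes passed the edgeR test between the stiffnesses (adjusted p from 0.144 to 0.531), and neither did the members they were picked to follow.

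Of 4 further genes of the EGR and AP-1 families, 3 were tested and 0 were called by edgeR. Fosl1, which encodes Fra-1, was at 1.81, 3.69 and 2.40 CPM at 2 kPa and at 1.31, 1.22 and 1.48 CPM at 50 kPa, with no overlap (-0.98 ± 0.31, edgeR adjusted p = 0.112; DESeq2 adjusted p = 0.0375). Jun stood at 0.47 ± 0.27 and Jund at 0.19 ± 0.15, with overlapping groups. Egr4, mostly a neuronal EGR gene, was at 0 in all libraries but low tension replicate 3, where it was 0.0300 CPM, and was not tested. Among 10 bZIP partners of AP-1, Batf, a partner of JUN proteins in lymphocytes and dendritic cells, was lower at 50 kPa, 12.3 ± 0.313 against 18.6 ± 1.49 CPM (log2 fold change -0.60 ± 0.10; edgeR adjusted p = 0.0444), and 0 were higher. This call was lost on leaving out low tension replicate 2 or 3 or any high tension replicate, with edgeR adjusted p-values of 0.0608 to 0.214. The call was also lost by edgeR with upper-quartile factors (adjusted p = 0.0506), total counts (0.0582) and no low-count filter (0.0525). Batf had an edgeR adjusted p of 0.0586 with at least 5 CPM in 3 libraries and 0.0533 with the replicate number as a block. Its relative Batf3, needed for cross-presenting dendritic cells, was at -0.46 ± 0.11 (edgeR adjusted p = 0.0783) and the AP-1 repressor Jdp2 at -1.12 ± 0.43 (edgeR adjusted p = 0.154). The bZIP list's median was -0.29, against -0.028 over all genes.

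Other immediate early genes had values on both sides of 0. Of 26 listed, 25 were tested, 1 rose, 0 fell and 24 were not called, with a median of -0.099. DESeq2 called 2 higher and 5 lower, beside 7.44% and 8.59% of all genes. At an unadjusted p under 0.05 by edgeR, 4 were higher and 8 lower, beside 27.8% of all genes in either direction. Per1, a clock gene that is also induced early, rose from 45.1 ± 1.03 to 61.04 ± 1.95 CPM (0.44 ± 0.075, edgeR adjusted p = 0.0434). Its adjusted p was above 0.05 in each fit that left out 1 library (0.0543 to 0.213), and with total counts as the scaling its log2 fold change was 0.30 (adjusted p = 0.190). The Per1 call was also lost by edgeR with upper-quartile factors (adjusted p = 0.0536) and no low-count filter (0.0548). With at least 5 CPM in 3 libraries its edgeR adjusted p was 0.0619, and with the replicate number as a block 0.0504. Sik1, a kinase gene induced through CREB, stood at -0.52 ± 0.13 (edgeR adjusted p = 0.0747) and Arc, an early gene best known from neurons, at -1.03 ± 0.26 (edgeR adjusted p = 0.0784), each with groups that did not overlap. Such separation was seen for 8 genes of this list below and 5 above, beside 16.9% and 17.2% of all genes.

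Upstream regulators gave 1 call among 34 genes tested, with 33 not called. Mkl2, an actin-sensing coactivator of SRF also named Mrtfb, rose from 43.7 ± 3.68 to 61.3 ± 1.81 CPM (0.49 ± 0.091, edgeR adjusted p = 0.0485). This adjusted p was between 0.0481 and 0.215 in the fits without 1 library, and under 0.05 only without low tension replicate 1. The Mkl2 call was also lost with upper-quartile factors (adjusted p = 0.0641), total counts (log2 fold change 0.35, adjusted p = 0.187), no filter (0.0577), the 5 CPM filter (0.0669) and the replicate block (0.0547), all by edgeR. Crem, whose CREB-like protein has activator and repressor forms, stood at 22.1, 38.8 and 28.5 CPM at 2 kPa and at 14.4, 11.6 and 20.0 CPM at 50 kPa with no overlap (-0.96 ± 0.27, edgeR adjusted p = 0.0952). The CREB coactivator Crtc2 stood at -0.38 ± 0.11 (edgeR adjusted p = 0.104). The subgroups of MAP kinases (11 genes), calcineurin and NFAT (7) and NAB and RXR partners (4) had 0 calls by edgeR and 0 by DESeq2. At an unadjusted p under 0.05 by edgeR they had 2, 1 and 1 genes, beside 27.8% of all genes in either direction. The list's median was 0.023.

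Known AP-1 targets went both ways. Of 11 genes, Mmp13, which encodes collagenase 3, rose (2.85 ± 0.48, edgeR adjusted p = 0.0399). Mmp3, which encodes stromelysin 1, fell (-5.82 ± 0.89, edgeR adjusted p = 0.0364), and 9 were not called by edgeR. At an unadjusted p under 0.05 by edgeR, 5 were higher and 2 lower. DESeq2 called 4 higher and 2 lower, beside 7.44% and 8.59% of all genes. The groups did not overlap for 4 genes above and 2 below, beside 17.2% and 16.9% of all genes. Mmp13 passed in no fit that left out 1 library (edgeR adjusted p from 0.0546 to 0.190), and Mmp3 passed in such a fit only without low tension replicate 1 (0.0442 to 0.190). Mmp3 was at 1.48, 7.96 and 6.31 CPM at 2 kPa and at 0.0622, 0.0299 and 0.174 CPM at 50 kPa, so the 50 kPa level rests on very few reads. Vegfa stood at 0.61 ± 0.14 (edgeR adjusted p = 0.0650). Heat shock genes, which rise with handling of cells, gave 0 calls by edgeR among 9 tested. At an unadjusted p under 0.05 by edgeR there were 5, beside 27.8% of all genes in either direction. DESeq2 called 2 higher and 1 lower, beside 7.44% and 8.59% of all genes. The heat shock genes summed to 3713 to 4444 CPM at 2 kPa and 3564 to 3788 CPM at 50 kPa over 10 genes found. Hspa1a stood at 1.58, 1.54 and 4.24 CPM at 2 kPa and at 19.9, 8.21 and 4.25 CPM at 50 kPa (2.15 ± 0.68, edgeR adjusted p = 0.114), and 1.37 without high tension replicate 1. Its near-identical copy Hspa1b can share its reads, so the value is uncertain. Hsp90aa1 stood at -0.81 ± 0.19 (edgeR adjusted p = 0.0695) and Dnaja1 at -0.47 ± 0.18 (edgeR adjusted p = 0.156). The part of handling in the members' values was not tested.

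**Figure D4:**
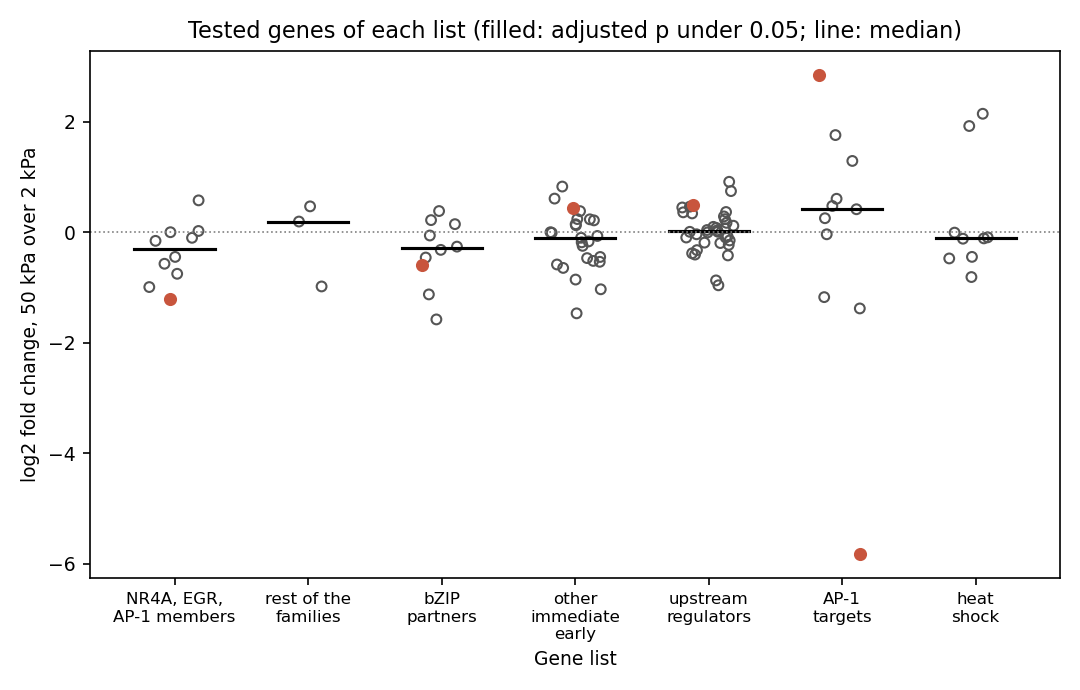
Log2 fold change of 50 kPa over 2 kPa (vertical axis) for every tested gene of the members and of 6 further lists (horizontal axis), with a line at each median. Filled points passed edgeR's test, 1 of 10 members (Nr4a1), Batf, Per1, Mkl2, Mmp3 and Mmp13, and the medians lie between -0.30 and 0.42.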

How the data were processed

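The authors deposited 6 tables, 1 a library, of raw whole-number counts by gene symbol, from libraries made with a directional NEBNext Ultra II kit per the labels' protocols. The submitters' processing notes list, without roles, TopHat2 2.0.11, HTSeq 0.6.1p2, FastQC 0.11.2, edgeR 3.16.5 and 3.8.6, and as builds hg19 and mm10. Neither the annotation nor the use of strand in counting is stated there.

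Groups follow the tension named in the sample titles. The comparison used edgeR 4.0.16 in R 4.3.3 (filterByExpr defaults, minimum count 10 and minimum total 15; TMM factors; glmQLFit and glmQLFTest with stiffness as the term), with Benjamini-Hochberg adjustment over all 13155 genes. The SE is the log2 fold change divided by the square root of the F value, and intervals use the t quantile at the fit's degrees of freedom. Log2 CPM used a prior count of 2. Gene models are from GENCODE vM21, promoters from RefSeq, found for 8 of 10 members. Alternatives used limma 3.58.1 and DESeq2 1.42.0 (independent filtering on, leaving 14436 genes with an adjusted p). Named genes were all members, each called gene and the 3 smallest p-values of each list, and the 3 genes most like each family's most abundant member by Pearson r, without pseudogenes, predicted genes or small RNAs. The members and lists were chosen with earlier results of these data known. On simulated data for 50 kPa against 2 kPa (13012 genes), the procedure called 32.7% of genes changed 2-fold and 97.0% of those changed 8-fold. It made 135 calls on these data, 7 of them false. Python 3.11.15 and matplotlib 3.10.9 drew the plots.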

Additional observations from a re-analysis of the deposited data

How the results depend on the processing

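Nr4a1 was lower and called under the RLE, upper-quartile and total-count scalings, both other filters, DESeq2, limma-voom, robust fits and the replicate block (adjusted p from 1.67e-09 to 0.0481). Members called lower by edgeR numbered 2 with the replicate block, which added Nr4a3 (-1.01, adjusted p = 0.0328), 0 with high tension replicates 1 and 2 summed (1 at an unadjusted p under 0.05) and 0 to 1 without 1 library (1 to 4 at an unadjusted p under 0.05), beside 1 in the report. Members called higher stayed at 0 in every alternative run. Whether the replicate numbers mark pairs is not stated and cannot be told from these values. Deviations from the group means correlated with r = 0.542, -0.106 and 0.488 for numbers 1 to 3, and 3 of 6 libraries were closest to their own number. With the block all genes called lower went from 260 to 522, and genes of the lists other than members and cell type markers called higher from 3 to 1.

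Of the 95 genes in the lists other than the members and the cell type markers, those called higher, 3 in the report, numbered 1 with upper-quartile factors, total counts or no filter, 0 with at least 5 CPM in 3 libraries, 9 by DESeq2, 0 with the summed sample and 0 to 2 without 1 library. Those called lower, 2 in the report, numbered 1 with upper-quartile factors, total counts, no filter or limma-voom, 0 with at least 5 CPM in 3 libraries, 12 by DESeq2, 0 with the summed sample and 0 to 2 without 1 library. All genes called higher, 194 in the report, numbered 77 with total counts, 20 with at least 5 CPM, 1074 by DESeq2, 0 with the summed sample and 0 to 255 without 1 library. Those called lower numbered 16, 1240 and 0 with at least 5 CPM, DESeq2 and the summed sample, and 0 to 256 without 1 library. Fewer samples or genes were tested in the smaller fits, and otherwise the cause was not tested. Over all genes tested, the median log2 fold change was -0.16 with total counts, against -0.028.

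Signs changed only for members and genes that were not called. Fos went to -0.13 and Fosl2 to -0.12 with total counts, and Fosl2 to -0.014 with at least 5 CPM. Without 1 library the ranges were -0.17 to 0.15 for Fos, -0.15 to 0.13 for Fosl2, -0.17 to 0.018 for Junb, -0.35 to 0.19 for Egr3, -0.89 to 0.20 for Fosb, -1.20 to 0.16 for Xkr8, -0.67 to 0.046 for Isoc1 and -0.29 to 0.011 for Syngr2. With the longest transcript as the length, Fosb, Fosl2 and Junb stood at 6.09, 27.7 and 201 CPM per kb, against 3.69, 18.7 and 158.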
